A study of Mus musculus with 65 samples.

Results

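The retina 2 months into microglial repopulation (REPOP60, 4 mice) was compared with the retina at day 7 of repopulation (REPOP7, 3 mice), 7 of the 65 libraries sequenced in 16 groups. The rule that chose the members uses sample labels and no measured value, although earlier results of these data were known when it was set: all REPOP60 libraries, whose titles end in re, and the REPOP7 libraries whose titles share that ending. The mice were adult C57BL/6J. In the scheme of the study, they received the diet with PLX5622, an inhibitor of the receptor CSF1R, for 14 days and then returned to control diet, for 7 days in REPOP7 and for 2 months in REPOP60. Retinal homogenate of each mouse gave 1 library of poly-A RNA. Control diet mice (CD) of the same title ending, labelled CD_1 and CD_2M, served as the reference level. The labels give neither sex nor the age at collection, and mice 2 months after withdrawal are older than mice at day 7 if treated at the same age. Age and time after withdrawal therefore cannot be told apart.

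Microglia are the resident macrophages of the retina, where they sit in the plexiform layers, survey neurons with motile processes and clear synaptic and cellular debris. Their survival depends on CSF1R signalling, driven by the ligands CSF1 and IL-34, so that inhibitors of the receptor remove them from the tissue. After the inhibitor is withdrawn, new microglia appear and fill the empty niche. The comparison asks which transcripts of the whole retina differ between a repopulated niche and one that is still largely empty.

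Over all 24395 tested genes, 10 DEGs were higher in REPOP60 than in REPOP7 and 12 were lower, 0.041% and 0.0492% of the genes tested. A DEG had an FDR under 0.01 in edgeR's quasi-likelihood test and a log2 fold change beyond 1. The higher DEGs were Ctss, C1qa, C1qb, C1qc, Cx3cr1, Selplg, Tmem119, Laptm5, Cd33 and Capn11. All of these except Capn11, 9 genes, belong to 6 lists of microglia genes. Of the lower DEGs, 11 are reported by name: Fbln1, Gpx3, Optc, Fam129a, Slc6a13, Fmod, Gja1, Eps8l1, Penk, Ltbp2 and Slc26a4, among them genes of extracellular matrix, transporters and gap junctions. With an FDR under 0.05 and no fold threshold, 24 genes were higher (0.0984%) and 26 were lower (0.107%).

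**Figure D1:**
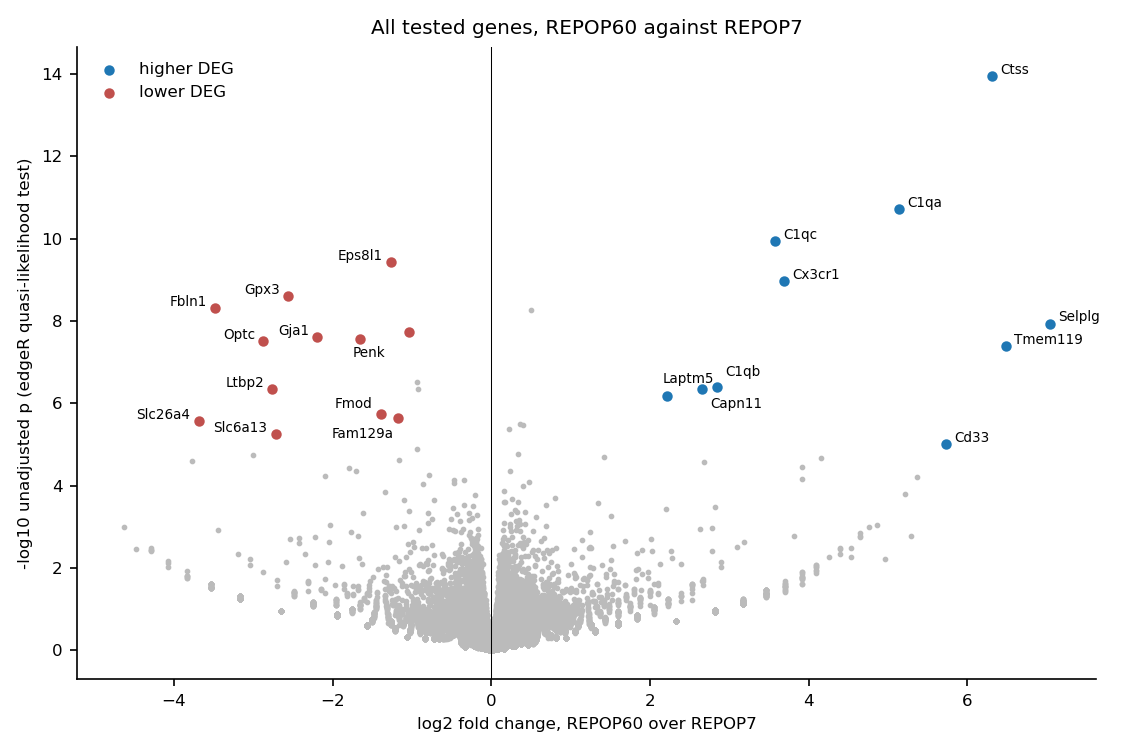
Each point is 1 of the 24395 tested genes, with the log2 fold change of REPOP60 over REPOP7 on the horizontal axis and the -log10 of the unadjusted p of edgeR's quasi-likelihood test on the vertical axis. Blue points are the 10 higher DEGs, red points the 12 lower DEGs and grey points all other genes. Ctss stands at the top with a log2 fold change of 6.31.

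Before the single genes, the libraries need description. Total counts were even, from 7431272 to 7574543 in the 7 libraries, so that 3 counts over the whole REPOP7 group correspond to 0.133 CPM (counts scaled to library size). The summed level of 17 rod genes lay between 71413 and 75061 CPM in the 7 libraries, the high level of a tissue rich in photoreceptors. REPOP7 replicates 2 and 3 stood apart from replicate 1 in 11 of the 12 lower DEGs, and the summed level of these 12 genes was 112 CPM in REPOP7 replicate 1, 255 CPM in replicate 2 and 293 CPM in replicate 3, against 71.4 to 79.8 CPM in REPOP60. Calls with REPOP7 replicate 1 alone and with replicates 2 and 3 alone, fits chosen after seeing the data, are therefore given for the DEGs. The leading digit of the title number, whose meaning the labels do not give, differed between the groups as well: replicates 1 and 2 of REPOP7 carried a 2, replicates 3 and 4 of REPOP60 carried a 0, and only 3 of the libraries, 1 from REPOP7 and 2 from REPOP60, shared the digit 1. With this digit as a covariate no gene was a DEG in edgeR's quasi-likelihood test, and 839 genes had an unadjusted p under 0.05.

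Ctss, which encodes cathepsin S, a lysosomal protease of antigen-presenting cells, changed most clearly. The gene (ENSMUSG00000038642) lies on chromosome 3 of GRCm38 from 95526786 to 95556403. Its counts were 0, 0 and 1 in REPOP7 replicates 1 to 3, and 33, 32, 39 and 40 in REPOP60 replicates 1 to 4. Every REPOP60 library lay far above every REPOP7 library, and the CD libraries, with 40 and 30 counts, lay within or near the REPOP60 range. The pooled ratio of REPOP60 over REPOP7 was 108, with a 95% exact interval of 19.1 to 4308 that covers counting error only (FDR = 2.7e-10, edgeR's quasi-likelihood test). Ctss passed with REPOP7 replicate 1, a library with 0 counts, as the only day 7 library (FDR = 0.00065, edgeR) and with replicates 2 and 3 alone (FDR = 0.000292).

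The 3 subunits of C1q, the recognition molecule that opens the classical complement cascade and tags synapses and debris, rose together. Their genes are neighbours on chromosome 4 (C1qb from 136880129 to 136886187, C1qc from 136889804 to 136893065 and C1qa from 136895917 to 136898803). C1qa had 1, 1 and 0 counts in the REPOP7 libraries and 22, 28, 42 and 18 counts in the REPOP60 libraries. C1qc had 1, 2 and 3 counts against 21, 26, 30 and 23, and C1qb had 2, 3 and 1 counts against 18, 15, 13 and 14. The groups did not overlap in any of the subunits, and the CD counts of 21 and 32 for C1qa, 16 and 27 for C1qc and 22 and 12 for C1qb were on the side of REPOP60. The pooled ratio for C1qa was 41.4 (95% exact interval 11.2 to 346), and the log2 fold changes were 3.58 ± 0.41 (SE, n = 3 and 4) for C1qc and 2.85 ± 0.47 for C1qb. The adjusted p-values from edgeR were 2.3e-07 for C1qa, 9.4e-07 for C1qc and 0.00059 for C1qb. The call of C1qb was lost without any 1 of the 7 libraries, and in 16 of 21 alternative fits, against 5 for C1qa and 4 for C1qc.

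Surface molecules of microglia formed the next group. Cx3cr1, the receptor for fractalkine that neurons present to microglia, lies on chromosome 9 from 119901616 to 120069879. It had 1, 2 and 2 counts in REPOP7 and 24, 31, 23 and 13 counts in REPOP60, a log2 fold change of 3.69 ± 0.46 (SE; FDR = 5.2e-06, edgeR). CD had 27 and 29 counts, so REPOP60 replicate 4 was the lowest library outside REPOP7, and the groups did not overlap. Tmem119 is a membrane protein used to tell microglia from other macrophages. It was listed at 0 in all 3 REPOP7 libraries and had 10, 14, 10 and 10 counts in REPOP60 (FDR = 6.9e-05, edgeR). The gene was at least 11.0-fold higher by a floor of 3 counts over the REPOP7 group. This bound, like those of other genes at 0 in REPOP7, takes the REPOP60 counts as exact. CD had 14 counts in each library. Selplg, which encodes the selectin ligand PSGL-1, was at 0 in REPOP7 and had 19, 16, 25 and 5 counts in REPOP60, at least 16.3-fold higher (FDR = 3.1e-05). Replicate 4 of REPOP60 was again the lowest, and the 2 CD libraries, with 31 and 21 counts, were higher than most of the REPOP60 libraries. Cd33, a sialic acid receptor, was at 0 in REPOP7 and had 5, 6, 10 and 5 counts in REPOP60, at least 6.52-fold higher (FDR = 0.0085, edgeR). CD had 2 and 5 counts of Cd33, at or below the lowest REPOP60 library.

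Laptm5, a lysosomal membrane protein of blood and immune cells, had 2, 11 and 3 counts in REPOP7 and 32, 26, 26 and 16 in REPOP60. REPOP7 replicate 2 was the highest of the day 7 libraries, still under the lowest REPOP60 library, and CD had 40 and 29 counts. The log2 fold change was 2.22 ± 0.37 (SE; FDR = 8.0e-04, edgeR). Capn11, a calpain protease known from testis and not on any microglia list, had 8, 6 and 1 counts in REPOP7 and 54, 37, 26 and 10 counts in REPOP60, a log2 fold change of 2.65 ± 0.44 (SE; FDR = 5.9e-04). Capn11 had 4 and 10 counts in CD, at or below the lowest REPOP60 library, and in other libraries of the series it varied within a group: 5, 59 and 1 counts in the REPOP7 libraries with titles ending in RE.

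**Figure D2:**
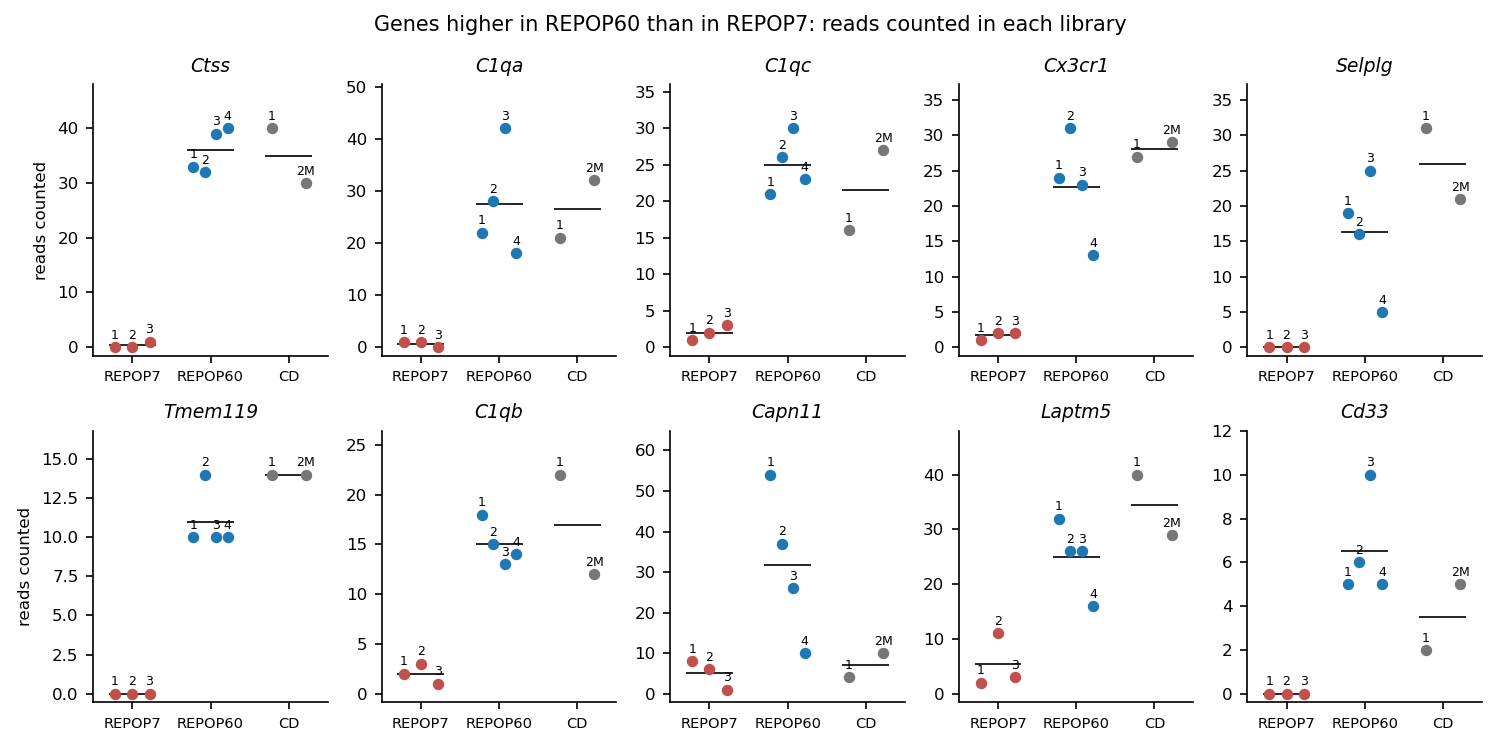
Each panel shows 1 of the 10 higher DEGs, with the reads counted on the vertical axis (starting at 0) and a point for each library of REPOP7 (3), REPOP60 (4) and CD (2), numbered by replicate, with a line at the group mean. In every panel the 4 REPOP60 points lie above the 3 REPOP7 points, and in all panels but Capn11 and Cd33 both CD points lie well above REPOP7 as well.

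In all 10 higher DEGs the groups did not overlap, against 3.65% of all tested genes with a higher CPM in every REPOP60 library. The DEGs were chosen in these same libraries, so the separation is a description and no further evidence. Leaving out 1 library left 2 to 5 higher DEGs, with Ctss and C1qc among them each time. With REPOP7 replicate 1 as the only day 7 library, Ctss alone of the 10 remained a DEG, and the FDR of the other 9 ran from 0.0213 (C1qc) over 0.0881 (C1qa), 0.0995 (Laptm5), 0.114 (Cx3cr1), 0.194 (Tmem119), 0.368 (Selplg), 0.402 (C1qb) and 0.663 (Cd33) to 0.746 (Capn11, edgeR). With replicates 2 and 3 alone, Ctss, C1qa and C1qc remained, and the FDR of the other 7 ran from 0.0261 (Cx3cr1) to 0.434 (Capn11). Within the libraries of title digit 1, all 10 higher and all 12 lower DEGs had the same direction, with a log2 fold change of 3.22 for Laptm5 and -4.61 for Fbln1. These libraries are among those that chose the DEGs, and they include a REPOP7 library that was high in the lower DEGs. The shared direction is therefore no separate evidence. The only REPOP7 library there was replicate 3, and no gene passed (FDR = 0.825 for Ctss, edgeR). In the same test against CD, the fitted level of REPOP7 was lower for each of the 10 genes, with log2 differences (REPOP7 minus CD) from -7.71 to -0.49 and a median of -4.42. An unadjusted p under 0.05 was reached by 9 of the 10, against 1.61% of all genes tested there that were lower at this p. REPOP60 minus CD ran from -0.67 to 2.17 with a median of -0.06. Of these 10 genes, 2 had an unadjusted p under 0.05 in that comparison (4.03% of all genes tested there did), Selplg (log2 difference -0.67) and Capn11 (2.17). Capn11 was also 1 of the 7 genes with an FDR under 0.05 there (edgeR). With 2 CD libraries these comparisons resolve little: for Ctss the 95% interval of REPOP60 minus CD was -0.39 to 0.48, and for Cx3cr1 it was -0.82 to 0.23. The 3 comparisons share libraries, so their values are given side by side and are not independent of each other. By edgeR's quasi-likelihood test no gene was a DEG between REPOP7 and CD (805 genes, 3.14%, had an unadjusted p under 0.05) or between REPOP60 and CD (1048 genes). DESeq2 gave 2 DEGs, both lower, in the first of these.

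Promoters of the 9 microglia DEGs were read from RefSeq (GRCm38.p6) because the genes moved together and microglial genes are classic targets of the transcription factor PU.1. The table held 6 of the 9: Cd33, Laptm5, Cx3cr1, Ctss, C1qc and C1qb. In the 250 bases before the start, 3 of the 6 held the PU.1 core GAGGAAG on either strand (10.6% of all 32851 promoters did) and 2, Ctss and Laptm5, held TATAAA (12.4% of all). A match is a description of letters and not a site. The stretches around the 3 PU.1 core matches are printed 5′ to 3′ on the strand of the gene, with the match in capitals. CTTCCTC is the same core on the opposite strand.
Laptm5, chr4:130913252-130913308, + strand: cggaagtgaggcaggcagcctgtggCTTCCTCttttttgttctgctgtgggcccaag
C1qc, chr4:136893077-136893133, - strand: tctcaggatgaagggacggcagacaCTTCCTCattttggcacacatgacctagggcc
Cd33, chr7:43533366-43533421, - strand: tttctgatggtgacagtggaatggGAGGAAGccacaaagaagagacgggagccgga
The core lay 32 bases before the RefSeq start in Laptm5, 187 in C1qc and 219 in Cd33. The RefSeq start of C1qc lies inside the GENCODE span given above, and so does part of its scanned stretch. The core lies nearer to the end of that span, where the gene begins on the - strand. For 4 of the 6 genes, the bases after the RefSeq start were found in a GENCODE transcript of the gene, and for the others they were not. Whether the 3 printed stretches belong to these 4 is not given here.

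Beyond the DEGs, the microglia lists moved mostly upward. Of 78 listed genes, 74 were tested, 61 had a higher fitted level in REPOP60 and 13 a lower one. Over all 24395 tested genes, 12464 were higher and 11931 lower. Listed genes at 0 in every REPOP7 library were tested through their REPOP60 counts and could only come out higher. An FDR of 0.05 was passed by 14 listed genes, all of them higher, against 0.0984% of all tested genes. At an unadjusted p under 0.05, 32 listed genes were higher and 2 lower, against 3.06% and 2.96% of all tested genes. In bulk tissue, fewer microglia and less RNA per microglial cell cannot be told apart, and neither can their opposites.

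Among the receptors and adhesion molecules of the surface list, 5 of 18 tested genes passed an FDR of 0.05 and the median log2 fold change was 2.86, against 0.00 over all tested genes. With genes at 0 in REPOP7 set at their bound, this median was 1.81. Siglech, a sialic acid receptor of microglia, had 1, 0 and 0 counts against 5, 6, 12 and 4 (pooled ratio 20.3, 95% exact interval 3.35 to 832, FDR = 0.038, edgeR). P2ry12, the ADP receptor that guides microglial processes, had 2, 0 and 1 counts against 9, 12, 8 and 2. The lowest REPOP60 library equalled the highest REPOP7 library in raw counts, and the gene did not pass (FDR = 0.12, edgeR). Itgam, the integrin chain CD11b, was at 0 in REPOP7 and had 3, 2, 2 and 3 counts in REPOP60 (FDR = 0.43). Csf1r itself had 80, 92 and 86 counts in REPOP7 and 96, 125, 119 and 106 in REPOP60. The groups did not overlap, but the log2 fold change was 0.39 ± 0.12 (SE) and the gene did not pass (FDR = 0.41, edgeR). CD had 150 and 129 counts of Csf1r, above all 7 libraries, and REPOP60 minus CD was -0.32 on the log2 scale (95% interval -0.57 to -0.07, unadjusted p = 0.014).

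In the list of TREM2, TYROBP and Fc receptor signalling, 2 of 16 genes passed an FDR of 0.05 and the median log2 fold change was 1.33. Trem2, a lipid-sensing receptor of microglia, had 0, 1 and 0 counts in REPOP7 against 6, 6, 8 and 7 in REPOP60 and 5 and 3 in CD (pooled ratio 20.3, 95% exact interval 3.35 to 832, FDR = 0.023, edgeR). Its signalling partner Tyrobp had 0, 0 and 1 counts against 6, 3, 3 and 4 and did not pass (FDR = 0.37). Every REPOP60 library exceeded every REPOP7 library in both genes.

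The lysosomal list divided. It had a median log2 fold change of 0.09 over 18 tested genes, 4 of which passed an FDR of 0.05. Mpeg1, the pore-forming perforin-2, had 8, 15 and 10 counts in REPOP7 and 23, 33, 21 and 40 in REPOP60, a log2 fold change of 1.42 ± 0.29 (SE; FDR = 0.015, edgeR). Pld4, a lysosomal nuclease, had 0, 1 and 0 counts against 6, 10, 13 and 3 (FDR = 0.016, edgeR). Ly86, a partner of a receptor related to the toll-like receptors, was at 0 in REPOP7 against 6, 4, 6 and 4 counts (at least 5.02-fold higher, FDR = 0.034, edgeR). These 3 genes did not overlap between the groups.

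Transcription factors of the microglial lineage did not pass the test in any of 10 tested genes, where the median log2 fold change was 0.21. Spi1, which encodes PU.1, had 0, 1 and 0 counts in REPOP7 and 0, 2, 4 and 3 in REPOP60 (unadjusted p = 0.048). Sall1, a factor of microglial identity, had 9, 5 and 9 counts against 11, 12, 8 and 15, a log2 fold change of 0.59 with a 95% interval of -0.15 to 1.34. Both overlapped between the groups. Aif1, which encodes IBA1, was at 0 in the REPOP7 libraries and had 4, 2, 3 and 3 counts in REPOP60, but also 0 and 2 counts in CD (FDR = 0.28, edgeR).

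**Figure D3:**
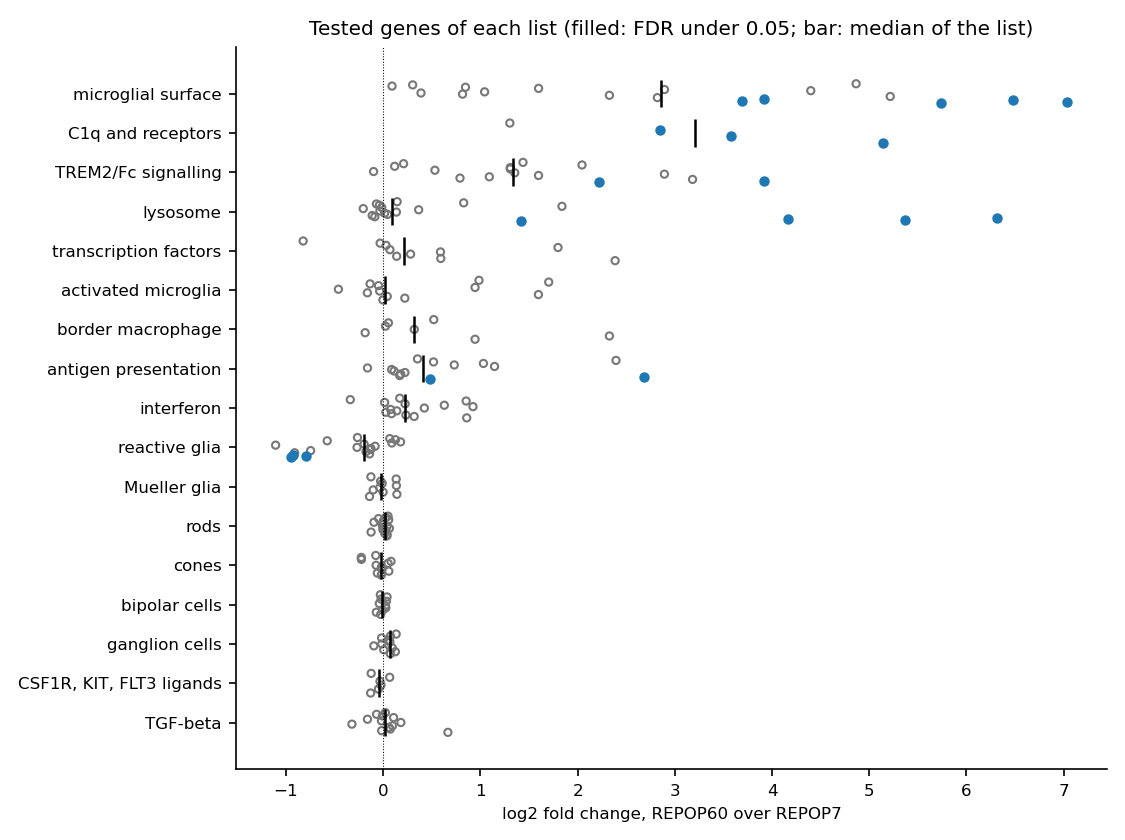
Each row is a gene list and each point a tested gene, placed by its log2 fold change of REPOP60 over REPOP7. Filled points passed an FDR of 0.05, open points did not, and the bar is the median of the list, which is 2.86 for microglial surface genes, 3.21 for C1q and its receptors and within 0.1 of 0 for rods, cones, bipolar and ganglion cells.

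The microglia score of each library, the mean of log2(CPM + 1) over all 78 listed genes, was 1.56 ± 0.015 in REPOP7 (SD, n = 3) and 1.95 ± 0.017 in REPOP60 (SD, n = 4). All REPOP60 scores, from 1.93 to 1.96, were above all REPOP7 scores, from 1.54 to 1.57, and the difference was 0.39. CD scored 1.98 ± 0.034 (SD, n = 2), with 1 of its libraries inside the REPOP60 range and 1 above it. The summed level of the list of other microglia-enriched genes, in which the matrix gene Sparc and the lipid enzyme gene Lpcat2 hold most counts, went the other way, from 194.9 to 204 CPM in REPOP7 and from 172 to 179.6 CPM in REPOP60. The summed level of the transcription factor list overlapped, with 194 to 219 CPM against 206 to 218 CPM. The log scale with a pseudocount of 1 understates changes of genes with few counts.

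**Figure D4:**
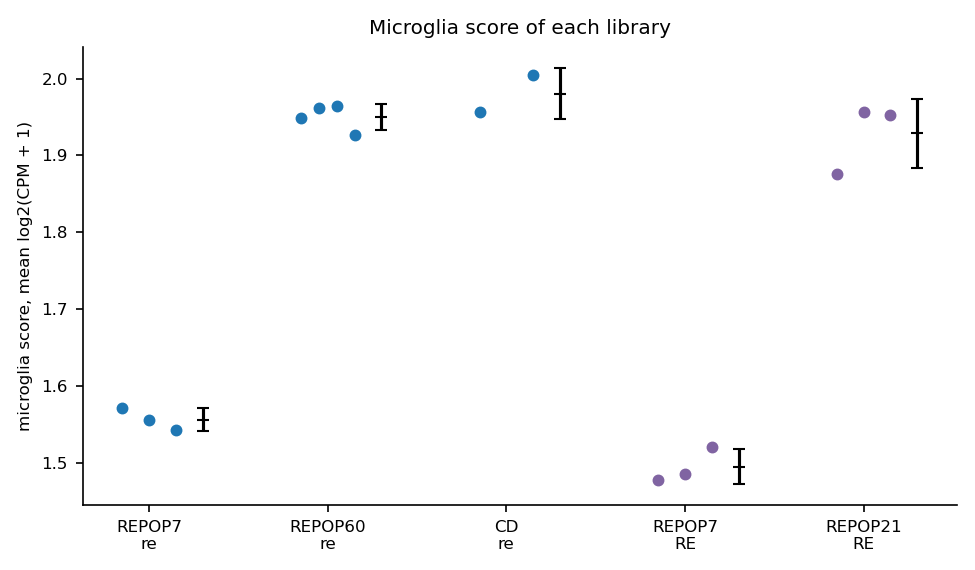
Points are the microglia score of single libraries, the mean of log2(CPM + 1) over 78 genes, with the group mean and SD beside them, for REPOP7, REPOP60 and CD libraries with titles ending in re (blue) and for REPOP7 and REPOP21 libraries with titles ending in RE (purple). REPOP60 and REPOP21 lie at 1.95 and 1.93, and both REPOP7 groups at 1.56 and 1.495.

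Other mice of the series allowed the same genes to be read in libraries that share no animal with the comparison, REPOP7 (3 mice) and day 21 of repopulation, REPOP21 (3 mice), both with titles ending in RE. The later time was day 21 there and 2 months here, so the values stand side by side. All 10 higher DEGs had a higher fitted level at day 21. Of these, 9 had an unadjusted p under 0.05 (3.12% of all genes tested there were higher at this p), and 9 did not overlap (6.83% of all genes). An FDR under 0.05 was reached by Ctss, C1qa, C1qb and C1qc, 4 genes, against 0.0214% of all genes, and 1 gene, Ctss, met the thresholds of a DEG (0.00428% of all genes, edgeR). Ctss had 1, 2 and 0 counts at day 7 and 56, 64 and 60 at day 21, and Cx3cr1 was at 0 at day 7 and had 13, 13 and 25 counts at day 21. Capn11 was the exception, with 5, 59 and 1 counts against 11, 67 and 10. Of the 12 lower DEGs, 4 had a lower fitted level at day 21, and none of these 4 had an unadjusted p under 0.05 (3.61% of all genes were lower at this p). Fbln1 and Eps8l1 lay in the other direction at day 21, with log2 differences of 0.999 (unadjusted p = 0.012) and 0.60 (unadjusted p = 0.0061) and an FDR of 0.67 each in edgeR. Fbln1, Eps8l1 and Fmod were higher in every REPOP21 library than in every REPOP7 library there. The score was 1.495 ± 0.023 at day 7 and 1.93 ± 0.046 at day 21 (SD, n = 3 each).

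The 12 lower DEGs had another form. In 11 of them, REPOP7 replicates 2 and 3 both lay above every REPOP60 and CD library, while REPOP7 replicate 1 lay among or near those libraries. Fbln1, an extracellular matrix glycoprotein, had 7, 189 and 223 counts in REPOP7 replicates 1 to 3 against 11, 7, 16 and 15 in REPOP60 and 13 and 7 in CD. Optc, a proteoglycan of the vitreous, had 9, 89 and 132 counts against 6, 11, 11 and 13. Gpx3, a secreted glutathione peroxidase, had 34, 322 and 290 counts against 37, 31, 39 and 37. The 2 high libraries set the mean of the group in each case, and the log2 fold changes were -3.48 ± 0.46 for Fbln1 (FDR = 1.6e-05), -2.87 ± 0.41 for Optc (FDR = 5.6e-05) and -2.56 ± 0.33 for Gpx3 (SE; FDR = 1.0e-05, edgeR).

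Further matrix genes of the set were Fmod, a collagen-binding proteoglycan, with 30, 108 and 100 counts in REPOP7 against 30, 33, 20 and 36 in REPOP60, and Ltbp2, a protein of elastic fibres, with 4, 53 and 94 against 7, 8, 7 and 7. Transporters and channels were Slc6a13, a GABA transporter, with 2, 32 and 38 counts against 3, 2, 2 and 7, and Slc26a4, the anion exchanger pendrin, with 0, 30 and 33 against 2, 3, 1 and 0. In all of these, replicate 1 lay in or close to the REPOP60 range. Gja1, which encodes the gap junction protein connexin 43, had 19, 79 and 49 counts against 13, 10, 10 and 9, and Penk, the enkephalin precursor, had 41, 145 and 147 against 32, 38, 39 and 30. Fam129a, a stress-responsive gene, had 39, 97 and 82 against 27, 30, 29 and 41.

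Eps8l1, related to a regulator of actin, was the exception. It had 433, 209 and 451 counts in REPOP7 and 133, 168, 191 and 109 in REPOP60, with replicate 2 the lowest day 7 library and no overlap between the groups. The log2 fold change was -1.26 ± 0.15 (SE; FDR = 2.3e-06, edgeR). CD had 376 and 220 counts, also above every REPOP60 library, and REPOP60 minus CD was -0.98 on the log2 scale. Eps8l1 was 1 of the 7 genes with an FDR under 0.05 in that comparison (edgeR). Only 3 of the 12 lower DEGs, Eps8l1, Gja1 and Penk, had no overlap between REPOP60 and REPOP7, against 2.79% of all tested genes in that direction.

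Without REPOP7 replicate 1, 18 genes were lower DEGs. Without replicate 2 there was 1, Eps8l1, and without replicate 3 there was none in edgeR's quasi-likelihood test (1647 genes had an unadjusted p under 0.05 in either direction). With replicate 1 as the only day 7 library, 7 of the 12 genes (Fbln1, Gpx3, Optc, Slc6a13, Fmod, Ltbp2 and Slc26a4) had a fold change in the other direction, none of them with an FDR under 0.77. The summed level of the same 12 genes was 76.4 to 81.7 CPM in the REPOP7 libraries with titles ending in RE and 86.9 to 99.7 CPM in the 2 CD libraries.

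**Figure D5:**
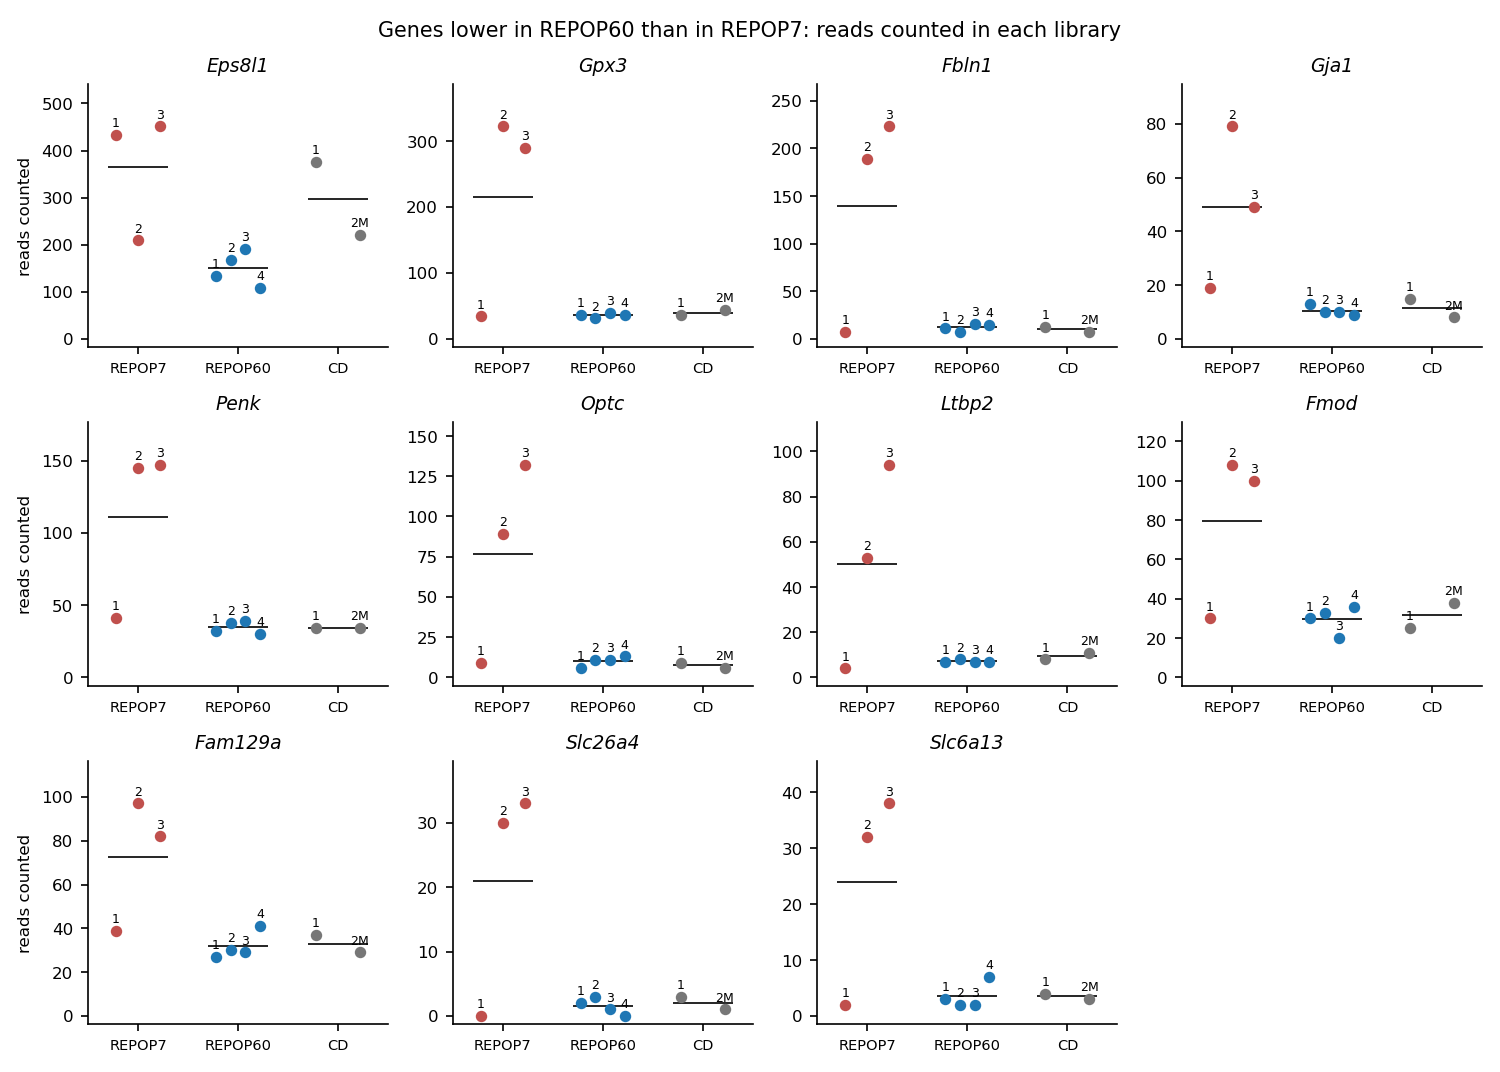
Each panel shows 1 of 11 of the 12 lower DEGs, with the reads counted on the vertical axis (starting at 0), a point for each library of REPOP7, REPOP60 and CD, numbered by replicate, and a line at the group mean. In 10 panels REPOP7 replicates 2 and 3 stand above all other points while replicate 1 is close to REPOP60 and CD, and in the Eps8l1 panel replicate 2 is the lowest REPOP7 point.

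At the looser threshold, 14 more genes were lower. The list of reactive glia genes, which astrocytes and Müller cells raise under stress, had 3 of 19 tested genes lower at an FDR of 0.05. At an unadjusted p under 0.05, 8 were lower and none higher. Over all tested genes, 0.107% and 2.96% were lower at these thresholds. The median log2 fold change of the list was -0.20. For REPOP21 minus REPOP7 in the libraries with titles ending in RE, it was -0.0004. Gfap, the intermediate filament of reactive glia, had 95, 166 and 159 counts in REPOP7 and 57, 62, 88 and 85 in REPOP60. The groups did not overlap, although replicate 1 of REPOP7 was close to the highest REPOP60 library and CD had 93 and 82 counts. The log2 fold change was -0.92 ± 0.15 (SE; FDR = 0.00059, edgeR), and with replicate 1 as the only day 7 library it was -0.36 (FDR = 0.75). A2m, a protease inhibitor, had 52, 94 and 70 counts against 27, 43, 48 and 30 (log2 fold change -0.94 ± 0.19, SE, FDR = 0.011), and C4b, a complement component, had 49, 70 and 66 against 42, 35, 34 and 30 (-0.79 ± 0.17, SE, FDR = 0.033). C3, the central complement component, had 14, 28 and 27 counts against 8, 6, 13 and 15, overlapped and did not pass (FDR = 0.24). In each of these genes replicate 1 was the lowest day 7 library. Other genes lower at this threshold, named after their values were seen, followed the same split: Cldn2, a claudin of tight junctions, had 0, 19 and 17 counts in REPOP7 against 2, 0, 0 and 1, and Ptgds, a prostaglandin synthase, had 122, 272 and 233 against 130, 109, 105 and 88. Rgs5, a pericyte gene of the vascular list, had 517, 472 and 412 counts against 334, 317, 404 and 397, with replicate 1 the highest (log2 fold change -0.35 ± 0.08, SE, FDR = 0.038).

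In the pigment epithelium list, Dct and Tyrp1 were highest in REPOP7 replicate 2. Dct, a melanin enzyme, had 10, 71 and 15 counts in REPOP7 and 9, 18, 7 and 7 in REPOP60, and Tyrp1, another, had 5, 23 and 7 against 3, 4, 5 and 2. Neither passed (FDR = 0.15 and 0.32, edgeR), and replicate 2 alone was high. The summed level of all 11 genes of the list was 18.0 to 35.1 CPM in REPOP7, highest in replicate 2. It was 11.98 to 27.4 CPM in REPOP60 and 7.7 to 12.9 CPM in CD. REPOP60 replicate 1 was the highest of its group and lay above REPOP7 replicates 1 and 3. None of the 11 genes was at 0 in all 7 libraries. The lens list ran from 24.3 to 29.3 CPM in REPOP7 and from 25.02 to 28.4 CPM in REPOP60 over 15 genes, 2 of them at 0 throughout. The part of other eye tissue in the lower DEGs was not tested.

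Higher at the looser threshold were 14 further genes, 5 of them microglial (Mpeg1, Siglech, Trem2, Pld4 and Ly86). Genes of antigen presentation added Cd74 and B2m, 2 of 14 tested genes of their list, whose median log2 fold change was 0.41. In this list 13 genes were higher and 1 lower, against 12464 and 11931 of all 24395 tested genes. For REPOP21 minus REPOP7 in the libraries with titles ending in RE, the median of the list was 0.02. Cd74, the invariant chain of MHC class II, had 3, 0 and 2 counts in REPOP7 and 9, 12, 8 and 16 in REPOP60, a log2 fold change of 2.68 ± 0.56 (SE; FDR = 0.018, edgeR). In CD it had only 2 and 1 counts, so REPOP60 lay above both other groups in every library. B2m, the light chain of MHC class I, had 100, 108 and 109 counts against 157, 131, 142 and 152 (0.48 ± 0.11, SE, FDR = 0.042), with CD split at 115 and 159. H2-Eb1, a class II chain, had 1, 1 and 0 counts against 2, 5, 4 and 5 and did not pass (FDR = 0.57).

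The remaining higher genes changed little and are named after their values were seen. Fndc1, a fibronectin domain protein, had 375, 384 and 446 counts against 530, 590, 552 and 569 (log2 fold change 0.50 ± 0.07, SE, FDR = 1.6e-05, edgeR). Its CD libraries had 429 and 599 counts, CD_1 in the REPOP7 range and CD_2M above all. Hdc, histidine decarboxylase, had 347, 353 and 390 counts in REPOP7 and 471, 478, 445 and 451 in REPOP60 (0.36 ± 0.07, SE, FDR = 0.0032), with CD at 314 and 397.

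Activation genes of microglia did not pass. Of 12 tested genes of the activated list, none had an unadjusted p under 0.05, and the median log2 fold change was 0.02. The summed level of the list was 458 to 559 CPM in REPOP7, where Tmem119 was at 0, and 487 to 541 CPM in REPOP60. Which cells gave this level was not tested, so the list says little about microglia alone. Spp1, osteopontin, had 72, 74 and 56 counts in REPOP7 and 91, 69, 75 and 76 in REPOP60 (log2 fold change 0.22, 95% interval -0.07 to 0.51). Lpl, a lipase, had 120, 131 and 119 against 109, 119, 102 and 106 (-0.16, -0.38 to 0.06). The list of border macrophages and monocytes had 13 genes, of which 7 were tested and 3 were at 0 in all 7 libraries, and its summed level was 20.4 to 22.3 CPM in REPOP7 and 18.8 to 22.45 CPM in REPOP60. Its most abundant gene, Lyve1, had 107, 119 and 111 counts against 97, 119, 94 and 81. Mrc1 and Cd163 had at most 2 counts in any library.

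Signals that maintain microglia were measured with few differences. Csf1, a CSF1R ligand, had 56, 59 and 60 counts in REPOP7 and 60, 61, 31 and 59 in REPOP60 (log2 fold change -0.13, 95% interval -0.48 to 0.22), and Il34, the other ligand, had 45, 44 and 42 against 35, 38, 41 and 53 (-0.05, -0.41 to 0.31). The fractalkine gene Cx3cl1 had 924, 998 and 885 counts against 853, 918, 958 and 1011 (0.01, -0.10 to 0.13). The checkpoint ligands Cd200 and Cd47 had differences of 0.13 (-0.05 to 0.31) and -0.00 (-0.11 to 0.11) on the log2 scale. Of the TGF-β ligands, which maintain microglial identity, Tgfb2 and Tgfb3 differed by -0.02 (-0.13 to 0.10) and 0.07 (-0.11 to 0.26), while Tgfb1 had 10, 12 and 7 counts against 14, 15, 21 and 11 (0.67, 0.01 to 1.32, FDR = 0.80, edgeR). None of the 8 passed an FDR of 0.05, and for Cx3cl1, Cd47 and Tgfb2 the intervals lay between -0.13 and 0.13 on the log2 scale.

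Neurons and Müller glia showed small differences. The lists of rods (17 genes), cones (11), bipolar cells (10), amacrine and horizontal cells (13) and ganglion cells (11) had no gene at an FDR of 0.05 and median log2 fold changes between -0.02 and 0.07. Among 10 Müller cell genes none passed either. Rlbp1, the retinaldehyde-binding protein, had 1977, 2029 and 2214 counts against 2281, 2312, 2273 and 2183 (0.14 ± 0.04, SE, FDR = 0.39), and Vim, vimentin, had 745, 763 and 713 against 666, 652, 666 and 674 (-0.14 ± 0.05, SE, FDR = 0.66, edgeR). Of 15 interferon-response genes, 14 had a higher fitted level and 1 a lower one, against 12464 and 11931 of all 24395 tested genes. None of the 15 passed, and their median was 0.22. For REPOP21 minus REPOP7 in the libraries with titles ending in RE, that median was 0.06. The 16 proliferation genes had a median of 0.07 and no gene at an unadjusted p under 0.05.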

How the data were processed

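Retinal poly-A RNA of 65 mice was sequenced as 50-base single-end reads. Per the labels and the methods, the authors aligned reads to mm10 with HISAT2, counted them per gene with HTSeq (deposited counts, not normalized) and estimated deposited FPKM values with StringTie. The HTSeq strand setting is not given in the sources used here, so overlapping and antisense genes cannot be told apart. Columns were matched to titles with case kept, and 0 columns were left unused. Groups came from the sample descriptions. Members and gene lists were chosen with earlier results of these data known.

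Counts of the 7 libraries (7431272 to 7574543 each) entered edgeR 4.0.16 (R 4.3.3): TMM scaling, a design holding the group alone, and the quasi-likelihood test. Genes with at least 1 count in a share of 0.5 of either group were tested, and FDR is by Benjamini and Hochberg. A standard error is the log2 fold change divided by the root of F, and 95% intervals use the same test. P-values measure the spread between mice labelled as separate. The methods of the study add a batch term without naming batches, so none entered. Coordinates are from GENCODE M21 (GRCm38), which holds 50376 of 50686 identifiers. The fit was checked on simulated data with 200 changed genes. Alternatives were DESeq2 1.42.0, limma 3.58.1 on log2(FPKM + 1), other filters, RLE, covariates, pooled fits and leaving out each library. A group at 0 gets a bound from 3 counts over the group. The bound takes the counts of the other group as exact and is no interval. A group of 1 to 3 counts gets a pooled ratio with an exact interval, which covers counting error only. Neither covers the spread between mice. Named were all DEGs (at most 30), core microglia genes, at most 4 genes of smallest p in other lists, and ligands. Figures were drawn with matplotlib 3.10.9. Some genes that the rule names are not reported here.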

Additional observations from a re-analysis of the deposited data

Results flagged for a closer look

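In REPOP60, 104 values were examined for 1 library far from the other 3 (a gap to the nearest other library above Dixon's critical value), and 6 met this, where chance gives about 1 in 20. Tmem119 had 14 counts in replicate 2 against 10 in each other library, and Ltbp2 had 8 in replicate 2 against 7. Csf1 had 31 counts in replicate 3, against 59 to 61 in the others. Ifit1, an interferon-induced gene, had 48 counts in replicate 1 and 9, 13 and 7 in the others, and Krt12, a keratin of the cornea, had 47 in replicate 1 and 9, 11 and 13 in the others. The summed level of the 10 higher DEGs was 20.5 CPM in replicate 4, against 29.98 to 31.7 CPM in the other REPOP60 libraries, and 27.6 to 28.0 CPM in the CD libraries with titles ending in re.

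The 12 lower DEGs were summed in the libraries outside the comparison as well. In the 5 CD libraries of both title endings the sum was 86.9 to 100.5 CPM. It was above 2 times the highest CD value in 8 of 53 other libraries: LPSCD replicate 2 (224 CPM), REPOP21 replicate 1 (256 CPM), DEP14 replicate 2 (297 CPM), DEP7 replicate 4 (308 CPM), REPOP10 replicates 2 (331 CPM) and 3 (401 CPM), and LPSREPOP replicates 2 (389 CPM) and 3 (408 CPM). DEP marks days on PLX5622 and LPS mice given lipopolysaccharide. These libraries come from depletion, repopulation and lipopolysaccharide groups and carry both title endings, and other libraries of the same groups were lower. No test was run on them.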

How the results depend on the processing

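The 7 libraries gave few DEGs, and their number moved with the settings, given here as higher and lower. It was 10 and 12 with RLE and 9 and 9 with filterByExpr. It was 19 and 22 with no gene filter, 6 and 1 with DESeq2, 18 and 19 with the likelihood ratio test and 2 and 1 with limma on log2(FPKM + 1). It was 0 and 0 with the title digit as a covariate and within the libraries of digit 1 (839 and 701 genes had an unadjusted p under 0.05). It was 2 and 0 with all 26 re libraries in 1 fit, 15 and 0 with all 65 libraries and the title ending, and 6 and 4 with all 6 REPOP7 libraries. In fits chosen after seeing the data, REPOP7 replicate 1 alone gave 1 and 1, and replicates 2 and 3 alone gave 3 and 18. A lone library is assumed to vary like the other group. At an FDR under 0.05 with no fold threshold it was 24 and 26. Leaving out each library in turn gave 2 to 5 higher and 0 to 18 lower DEGs: 3 and 18 without REPOP7 replicate 1, 5 and 1 without replicate 2, 2 and 0 without replicate 3, 3 and 0 without REPOP60 replicate 1, 2 or 3, and 4 and 0 without replicate 4. The cause was not tested.

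The 10 higher DEGs kept their direction in every alternative fitted, 21 for each gene and 20 for Cd33, with the fit without REPOP7 replicate 1 counted under both its names. The call was lost in 2 for Ctss, 4 for C1qc, 5 for C1qa, 11 for Cx3cr1, 13 for Selplg, 14 for Tmem119, 15 for Laptm5, 16 for C1qb and Capn11 and 17 for Cd33. With REPOP7 replicate 1 alone, the log2 fold change turned positive for Fbln1 (0.82), Gpx3 (0.10), Optc (0.21), Slc6a13 (0.79), Fmod (0.0087), Ltbp2 (0.86) and Slc26a4 (3.70, against 0 counts in that library, so that its size depends on the prior count). A fit with the replicate block gave 6 higher and 5 lower DEGs. Same-numbered mice correlated by 0.0654, -0.0843 and 0.0824 over 12335 genes. The highest correlation of any pair was 0.149, between REPOP7 replicate 2 and REPOP60 replicate 4. Not every library correlated best with its own number, so the samples share only a number.

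The score difference of 0.39 was 1.08 with a pseudocount of 0.1, 0.257 on log2(FPKM + 1), 0.414 over tested genes, 0.413 within title digit 1 and 0.387 to 0.402 leaving out each library. REPOP7 against CD had 2 lower genes at an FDR of 0.05, 2 lower DEGs with DESeq2 and 6 in a fit of all re libraries. REPOP60 against CD had 5 higher and 2 lower genes at an FDR of 0.05, and 0 to 1 DEGs in each direction leaving out 1 library. REPOP21 against REPOP7 had 1 higher DEG. It had 5 higher and 1 lower genes at an FDR of 0.05, 5 and 1 DEGs with DESeq2, 8 higher in a fit of all RE libraries, and 0 to 6 higher and 0 to 10 lower leaving out 1 library, the most (6 and 10) without REPOP7 replicate 5. At this depth, genes with a few reads per library, such as Itgam and Aif1, could not be called.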
